A study of Homo sapiens with 3 samples.

Results

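The genes described here are the aminoacyl-tRNA synthetases of human cells together with ATF4 and the serine pathway that ATF4 serves, 50 genes of the 18856 listed in at least 1 of 3 libraries. They were taken by the symbols in use when the files were made, and fall into 3 groups: 22 genes of the cytosolic synthetases with their scaffold proteins AIMP1 and AIMP2, 16 mitochondrial synthetases, and 12 genes of the ATF4 and serine pathway. All 50 were listed in every library with at least 12 reads. The libraries were HBE LIEA, A549 LIEA and HBE Smart-seq2, each made from 10 pg of polyA+ mRNA diluted from bulk mRNA. HBE is a human bronchial epithelial cell line and A549 a lung adenocarcinoma cell line, and the labels name no treatment of either. LIEA (low-input, equal-amplification) fragments the mRNA and amplifies the cDNA library by PCR. Each library molecule is then amplified on its own bead for Ion Torrent sequencing. Smart-seq2 copies the mRNA from an oligo-dT primer and amplifies the cDNA by PCR, for the same number of cycles, before an Illumina library is built. Each condition had 1 library, so no difference below has a replicate check and no p-value is given. A549 LIEA was compared with HBE LIEA, and HBE Smart-seq2 showed how far the same cell line moved with the method.

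Aminoacyl-tRNA synthetases join each amino acid to its tRNA and so feed the ribosome. Cytosol and mitochondria use separate enzymes for most amino acids, while GARS and KARS encode both forms, and QARS has no mitochondrial counterpart because EARS2 charges that tRNA first with glutamate. Several cytosolic enzymes sit in a multi-synthetase complex held together by AIMP proteins. ATF4 is a transcription factor whose translation increases when eIF2 alpha is phosphorylated under amino acid shortage or endoplasmic reticulum stress, and it is known to activate genes of amino acid synthesis, amino acid uptake and tRNA charging.

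The deposited values are log2 rpkM, reads per kilobase of transcript and per 1000000 mapped reads. The totals worked out from the values were 4605855 reads for HBE LIEA, 4154060 for A549 LIEA and 9845150 for Smart-seq2. A count of 0 allows up to 3 reads, which are 0.651, 0.722 and 0.305 reads per 1000000. Reads per gene are the smallest whole numbers that give the deposited values, and intervals below come from these reads and cover counting error only, since amplified reads are not independent molecules. The labels were checked with marker lists. The 5 bronchial basal markers (KRT5, KRT14, KRT17, TP63 and ITGB4) summed to 1897 rpkM in HBE LIEA, 6169 in Smart-seq2 and 88.9 in A549, where KRT14 was not listed. The 5 markers of the A549 line (AKR1B10, AKR1C1, AKR1C2, ALDH1A1 and CPS1) summed to 9774 rpkM in A549, 108 in HBE LIEA and 153 in Smart-seq2, and all 5 epithelial markers were listed in every library. Of the leukocyte markers CD3E was listed in no library and PTPRC had at most 3 reads, and the list summed to between 28.0 and 52.1 rpkM, nearly all from CD68 and LYZ. COL1A1 had between 85 and 175 reads as the only fibroblast marker above 1 read, with COL1A2 and DCN unlisted. The endothelial marker CDH5 had 103 reads in HBE LIEA and 180 in Smart-seq2, and it was not listed in A549. PECAM1 had 20 reads in HBE LIEA, 9 in A549 and 91 in Smart-seq2. VWF had 18 reads in HBE LIEA and was listed in no other library. KDR had 3 reads in A549 and 3 in Smart-seq2, and was not listed in HBE LIEA. The part of these cell types in the results was not tested.

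Most of the 50 genes were lower in A549. By LIEA, 43 were lower in A549 than in HBE and 7 were higher, with a median log2 difference of -0.52, while 55.6% of the 12775 genes that entered this comparison were lower and the median over all of them was -0.14. A gene entered where its mean over both libraries was at least 1 rpkM, and all 50 members did. Few of the differences were large. A log2 difference of at least 1, a fold of 2, was reached downwards by 11 members and upwards by 2, against 20.1% and 18.5% of all genes, so the share of large differences downwards was near that of all genes. In 37 of the 50 members the A549 value lay below both HBE libraries, which was so for 38.2% of the 12791 genes with a mean over the 3 libraries of at least 1 rpkM, and in 6 members it lay above both, against 32.2% of genes.

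The promoter sequences are shown because the 3 groups differ in how often they hold a motif known for ATF4. ATF4 binds DNA as a dimer with C/EBP-type partners, at a composite element read here as TGATGNAA, searched on both strands (TTNCATCA on the other) from 250 bases before to 50 bases after each annotated start in RefSeq on GRCh38.p14. Of the members, 42 had a promoter in that table and 10 of these, 23.8%, held the motif, while 4.46% of the 27305 genes with a promoter did (3.62% of all 35116 promoters). It was found in 7 of 18 cytosolic genes (AARS, CARS, GARS, IARS, MARS, NARS and TARS), in 1 of 14 mitochondrial genes (YARS2), and in 2 of 10 genes of the ATF4 group (ASNS and CHAC1). In 7 of the 10 the letters were TGATGCAA on one or the other strand. The 10 windows of 30 bases follow, 5′ to 3′ on the strand of the gene, with the motif in capitals.
AARS, chr16:70289675-70289704, minus strand: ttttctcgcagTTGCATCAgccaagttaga
CARS, chr11:3057407-3057436, minus strand: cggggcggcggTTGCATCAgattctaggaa
GARS, chr7:30594834-30594863, plus strand: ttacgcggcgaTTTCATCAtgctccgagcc
IARS, chr9:92293692-92293721, minus strand: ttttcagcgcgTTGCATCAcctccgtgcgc
MARS, chr12:57488053-57488082, plus strand: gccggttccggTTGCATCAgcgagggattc
NARS, chr18:57621804-57621833, minus strand: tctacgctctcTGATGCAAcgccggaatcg
TARS, chr5:33440956-33440985, plus strand: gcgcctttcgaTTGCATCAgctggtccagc
YARS2, chr12:32756076-32756105, minus strand: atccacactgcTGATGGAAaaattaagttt
ASNS, chr7:97872458-97872487, minus strand: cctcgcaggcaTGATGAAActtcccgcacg
CHAC1, chr15:40953251-40953280, plus strand: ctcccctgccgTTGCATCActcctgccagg

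In CARS, GARS, IARS, MARS and TARS the motif lay within 33 bases of the start, with its first base at -2, -33, -13, -4 and 3, and in NARS at 15. In AARS it lay upstream at -187, in YARS2 at -197, in ASNS at -68 and in CHAC1 at -209. Positions are given from the annotated start whose window held the motif. CARS, GARS, TARS and ASNS have another annotated start whose window held none, and which start these cells use was not measured. The 250 bases before the start are given for AARS, the cytosolic gene with the highest difference of A549 to HBE, for ASNS, and for CHAC1.
AARS, chr16:70289507-70289756, minus strand: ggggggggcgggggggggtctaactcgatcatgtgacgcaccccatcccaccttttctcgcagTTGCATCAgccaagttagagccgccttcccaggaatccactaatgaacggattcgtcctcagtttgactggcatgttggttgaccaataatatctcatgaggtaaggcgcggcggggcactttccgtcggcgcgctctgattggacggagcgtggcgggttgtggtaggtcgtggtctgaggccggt
ASNS, chr7:97872409-97872658, minus strand: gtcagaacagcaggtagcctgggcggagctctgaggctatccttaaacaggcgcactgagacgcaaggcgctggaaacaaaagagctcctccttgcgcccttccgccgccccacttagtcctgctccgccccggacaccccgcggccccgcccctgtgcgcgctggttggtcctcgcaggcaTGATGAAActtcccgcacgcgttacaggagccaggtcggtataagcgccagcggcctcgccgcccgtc
CHAC1, chr15:40953221-40953470, plus strand: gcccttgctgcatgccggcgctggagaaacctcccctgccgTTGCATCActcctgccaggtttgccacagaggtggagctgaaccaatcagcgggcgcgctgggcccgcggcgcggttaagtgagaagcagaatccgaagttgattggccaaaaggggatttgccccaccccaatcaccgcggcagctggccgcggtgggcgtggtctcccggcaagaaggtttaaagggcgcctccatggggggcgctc

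A match is a description of letters and not a measured site. The 10 members with the motif had a median log2 difference of A549 to HBE of -0.40, from -1.32 to 0.83, and the 32 members with a promoter and no motif had a median of -0.52, from -2.66 to 1.78. Members with the motif thus stood among the lowest (TARS) and the highest (CHAC1 and AARS) of the 50.

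The cytosolic synthetases were lower in A549 as a group but not to an equal extent. Of the 22 genes, 19 were lower and 3 higher by LIEA, against 55.6% lower among all genes. The median log2 difference of the 22 was -0.50, against -0.14 over all genes. Their rpkM summed to 1247 in HBE LIEA, 861 in A549 LIEA and 1597 in HBE Smart-seq2. A fold of 2 downwards was passed by VARS, TARS, YARS and GARS, 4 of 22 against 20.1% of all genes, and by none upwards against 18.5%. In 16 of the 22 A549 was below both HBE libraries, against 38.2% of all genes. In 2, AARS and LARS, it was above both, against 32.2%, LARS by less than its counting error.

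**Figure D1:**
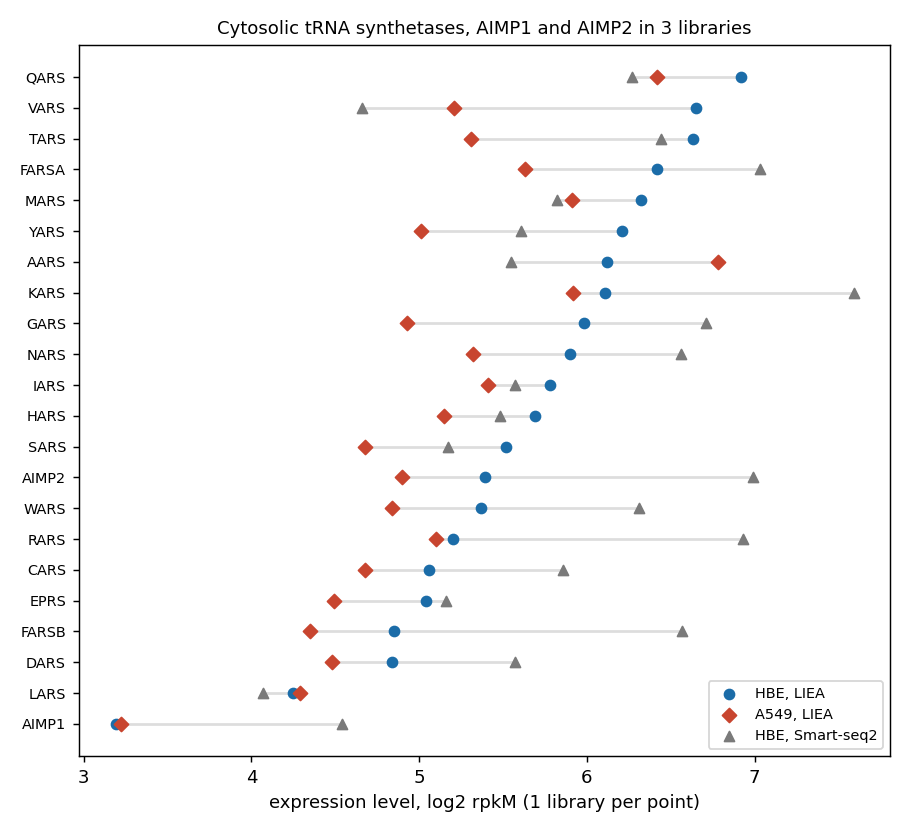
Expression levels in log2 rpkM (x axis) of the 22 cytosolic synthetase genes (y axis, ordered by HBE LIEA), with 1 point per library and a grey line from the lowest to the highest. The A549 diamonds are the leftmost point for 16 genes and the rightmost for AARS and LARS, and the Smart-seq2 triangles lie far to the right of the LIEA points for KARS, RARS, FARSB and AIMP2 and far to the left for VARS.

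VARS, which charges valine (GRCh37, chr6:31745295-31763529, minus strand), had a log2 rpkM of 6.65 in HBE LIEA, 5.21 in A549 LIEA and 4.66 in Smart-seq2. The log2 difference of A549 to HBE by LIEA was -1.44, with a 95% interval from counting of -1.57 to -1.31. This was the largest difference of the group, but the HBE libraries lay further apart than that, so that A549 was 0.55 above HBE when Smart-seq2 was the HBE library. TARS, for threonine (chr5:33440802-33468196, plus strand), had 6.63, 5.31 and 6.44 in the same order of libraries. Its A549 value lay below HBE by both methods, with a log2 difference by LIEA of -1.32 (-1.47 to -1.17). YARS, for tyrosine, had 6.21, 5.01 and 5.61, and a difference of -1.20 (-1.37 to -1.04). GARS, for glycine in cytosol and mitochondria, had 5.98, 4.93 and 6.71, with a difference of -1.05 (-1.23 to -0.86). For TARS, YARS and GARS the A549 library was thus the lowest of the 3, and the counting interval of GARS reached across the fold of 2. The fifth lowest was SARS, for serine, with 5.52, 4.68 and 5.17 and a difference of -0.84 (-1.03 to -0.65).

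AARS, which charges alanine (chr16:70285886-70323610, minus strand), stood apart from the other cytosolic enzymes. It had 1068 reads and a log2 rpkM of 6.12 in HBE LIEA, 1524 reads and 6.78 in A549 LIEA, and 1547 reads and 5.55 in Smart-seq2. A549 was the highest library, and its log2 difference to HBE by LIEA was 0.66 (counting interval 0.55 to 0.78), and 1.22 with Smart-seq2 as the HBE library. In A549 AARS was the highest of the 22 genes, whereas QARS was in HBE LIEA with 6.92 and KARS in Smart-seq2 with 7.59. AIMP1, a scaffold of the complex, had 3.19, 3.22 and 4.54. LARS had 4.25, 4.29 and 4.07, RARS 5.20, 5.10 and 6.93, and KARS 6.11, 5.92 and 7.59. For AIMP1, LARS and RARS the counting interval of the LIEA difference included 0, with differences of 0.04, 0.04 and -0.10, and for KARS it was -0.20 (-0.36 to -0.04).

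The genes of the multi-synthetase complex were EPRS, IARS, LARS, MARS, QARS, RARS, KARS, DARS, AIMP1 and AIMP2. By LIEA these 10 genes had a median log2 difference of -0.37, from -0.55 to 0.04. None passed a fold of 2, against 20.1% of all genes downwards and 18.5% upwards. The 12 genes of free cytosolic enzymes had a median of -0.68, from -1.44 to 0.66, and 4 passed a fold of 2 downwards. The narrower range of the complex by LIEA was not tested against the other genes. With Smart-seq2 as the HBE library the complex ranged from -2.09 to 0.22, and 5 of 10 were lower by a fold of 2 or more. There the free enzymes ranged from -2.22 to 1.22 with 7 of 12 lower, against 28.6% of all genes. EPRS, the joint enzyme for glutamate and proline, had 5.04, 4.49 and 5.16, the largest difference among these 10 genes at -0.55 (-0.72 to -0.39). EEF1E1, the third AIMP protein of the complex, which is not counted among the 50, had 4.83 in HBE LIEA, 3.62 in A549 and 3.70 in Smart-seq2, a difference by LIEA of -1.20 (-1.68 to -0.75). FARSA and FARSB encode the 2 subunits of the phenylalanine enzyme. FARSA had 6.42, 5.63 and 7.03, and FARSB 4.85, 4.35 and 6.57, so that both were lower in A549 than in either HBE library. FARSA was above FARSB per length in every library, and the gap was narrowest in Smart-seq2.

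**Figure D2:**
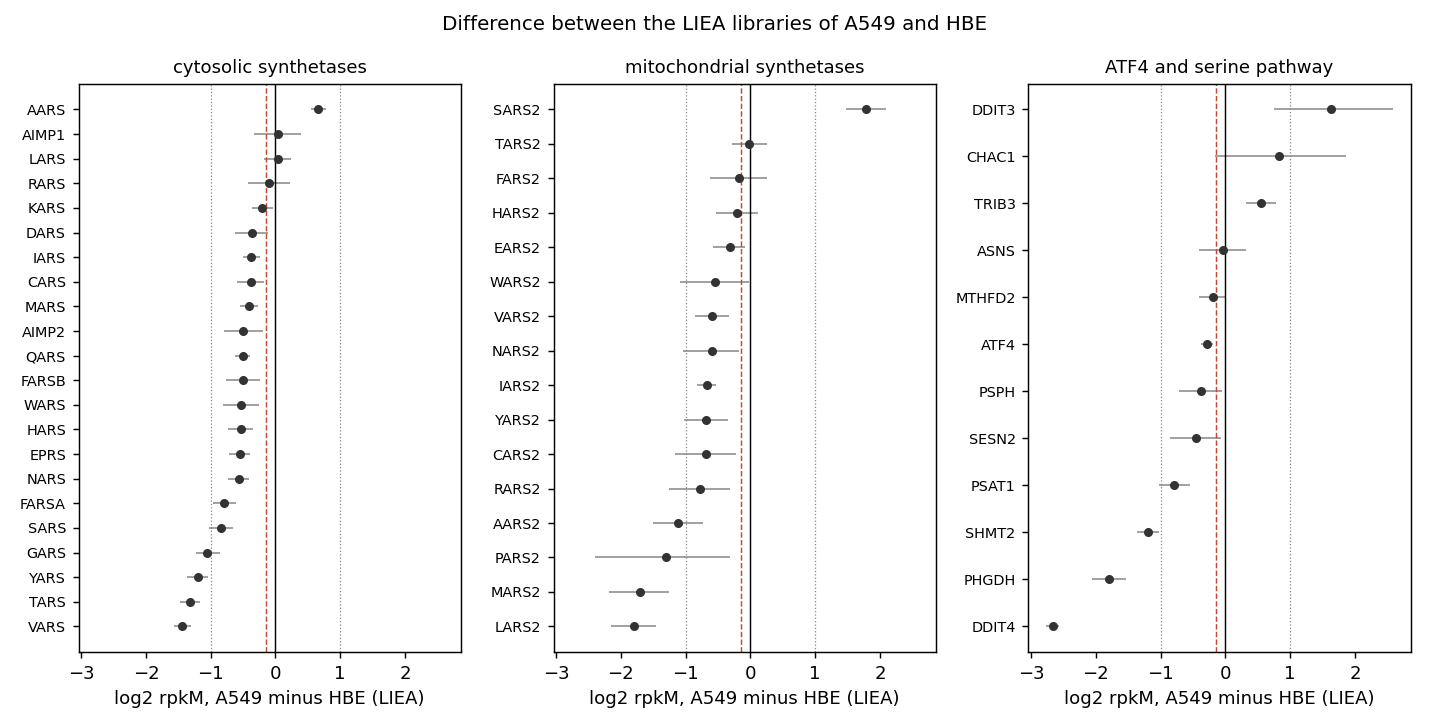
Log2 difference of rpkM between A549 LIEA and HBE LIEA (x axis) for the 50 genes in their 3 groups (y axis, ordered by the difference). Points are single comparisons of 1 library with 1, bars are 95% intervals from counting reads only, the dashed line is the median of all genes at -0.14, and dotted lines mark a fold of 2. Most points lie left of the dashed line, and AARS, SARS2, DDIT3, CHAC1 and TRIB3 lie to its right by more than 0.5.

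The mitochondrial synthetases followed the same direction with 1 clear exception. Of 16 genes, 15 were lower in A549 by LIEA, with a median log2 difference of -0.64. Among all genes 55.6% were lower and the median was -0.14. LARS2, MARS2, PARS2 and AARS2 passed a fold of 2 downwards, 4 of 16 against 20.1% of all genes, and SARS2 passed it upwards, against 18.5%. The whole counting interval lay past the fold of 2 for LARS2 and MARS2 downwards and for SARS2 upwards. A549 was below both HBE libraries in 12 of 16 genes, against 38.2% of all genes, and above both in 1, against 32.2%. Summed rpkM was 282 in HBE LIEA, 216 in A549, of which SARS2 gave 41.97, and 304 in Smart-seq2.

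LARS2, the mitochondrial leucine enzyme (chr3:45430053-45596218, plus strand), had 331 reads and a log2 rpkM of 4.10 in HBE LIEA, 86 reads and 2.30 in A549, and 547 reads and 3.72 in Smart-seq2. A549 was well under both HBE values, with a log2 difference by LIEA of -1.80 (-2.15 to -1.45). MARS2, for methionine (chr2:198570093-198573119, plus strand), had 3.72, 2.02 and 4.87, and a difference of -1.71 (-2.18 to -1.26). PARS2, for proline, had 2.59, 1.28 and 2.25 and a difference of -1.31, with a wide interval of -2.40 to -0.32, since at the smallest whole numbers it had 33, 12 and 56 reads. AARS2, for alanine, had 3.15, 2.05 and 1.93. Its difference by LIEA was -1.11 (-1.50 to -0.73), but A549 was 0.12 above HBE with Smart-seq2 as the HBE library. The fifth lowest, RARS2 for arginine, had 3.76, 2.98 and 3.21 with a difference of -0.78 (-1.25 to -0.31).

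SARS2, which charges mitochondrial serine tRNA (chr19:39405906-39421403, minus strand), had 116 reads and 3.61 in HBE LIEA, 360 reads and 5.39 in A549 LIEA, and 269 reads and 3.73 in Smart-seq2. The HBE libraries were close to each other, and A549 was above both. The log2 difference was 1.78 by LIEA (1.48 to 2.10), 3.44-fold, and 1.67 with Smart-seq2 as the HBE library. The other members near the upper end were close to no difference. TARS2 had 4.23, 4.21 and 4.88, FARS2 3.53, 3.35 and 3.97, and HARS2 4.05, 3.85 and 4.72, and the counting intervals of their LIEA differences (-0.02, -0.18 and -0.21) included 0. HARS2 (chr5:140071015-140078890) overlaps the start of HARS on the other strand, and whether reads were assigned by strand is not known here. EARS2, for glutamate, had 4.16, 3.84 and 4.26 with a difference of -0.32 (-0.57 to -0.08).

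**Figure D3:**
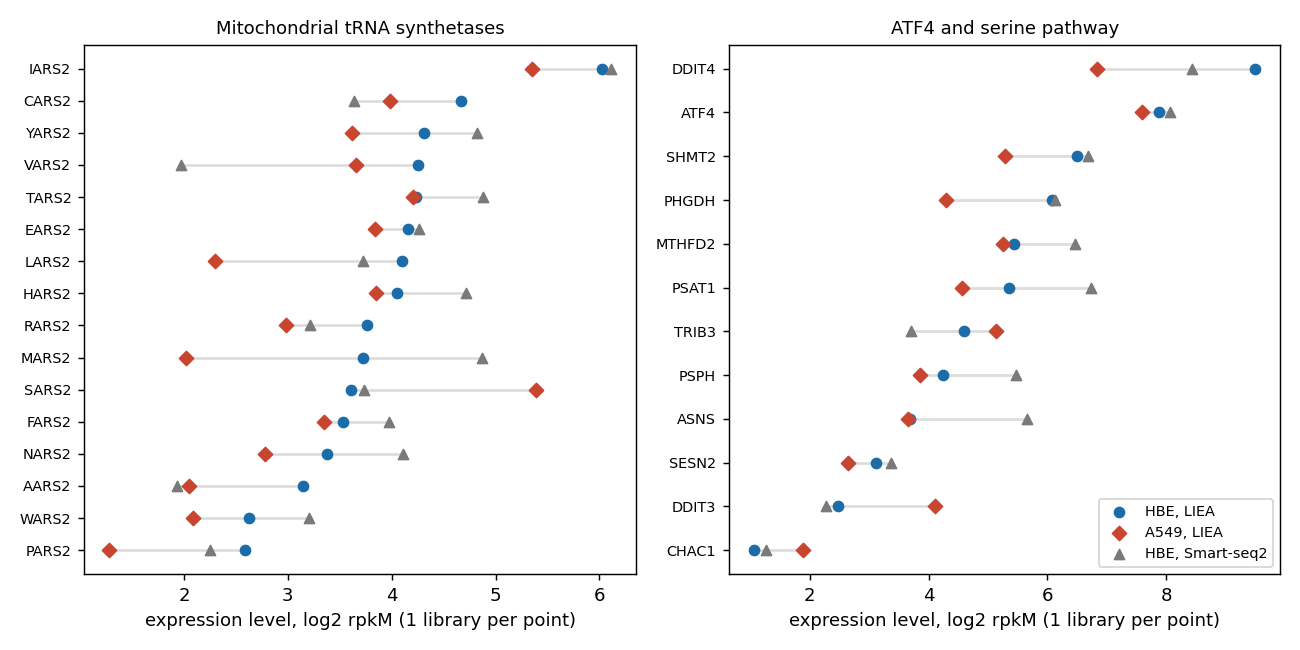
Expression levels in log2 rpkM (x axis) of the 16 mitochondrial synthetases (left) and the 12 genes of the ATF4 and serine pathway (right), ordered by HBE LIEA, with 1 point per library and a grey line from the lowest to the highest. SARS2, DDIT3, CHAC1 and TRIB3 have their A549 diamond as the rightmost point, and every other gene of the right panel has it as the leftmost.

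For 13 amino acids there was 1 cytosolic and 1 mitochondrial enzyme among the members. The cytosolic gene was higher per length for 12 of 13 in each library, with a median log2 gap of 1.91 in HBE LIEA, 1.55 in A549 LIEA and 1.56 in Smart-seq2. The exception differed. In the HBE libraries it was isoleucine, with a log2 gap of IARS to IARS2 of -0.25 and -0.55, and in A549 it was serine. The gap of SARS over SARS2 was 1.91 in HBE LIEA and 1.45 in Smart-seq2, and in A549 it was -0.71, so the mitochondrial gene was the higher one there. In the other direction, the gap of AARS over AARS2 was 2.96 in HBE LIEA and 4.73 in A549, and that of LARS over LARS2 was 0.15 and 1.99. With Smart-seq2 the gaps were 3.63 for alanine and 0.34 for leucine. The leucine gap was thus small by both methods in HBE and large in A549.

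The ATF4 and serine pathway was divided. Of 12 genes, 9 were lower in A549 by LIEA and 3 higher, with a median log2 difference of -0.34. Among all genes 55.6% were lower and the median was -0.14. In all 12 the A549 value lay outside both HBE libraries, below both in 9 and above both in 3. Over all genes these shares were 38.2% and 32.2%. For ASNS, MTHFD2 and CHAC1 the counting interval of the LIEA difference included 0. DDIT4, PHGDH and SHMT2 passed a fold of 2 downwards (3 of 12 against 20.1% of all genes) and DDIT3 upwards (1 of 12 against 18.5%). The counting interval of DDIT3 reached across the fold of 2.

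ATF4 itself (chr22:39915700-39918688, plus strand) had a log2 rpkM of 7.88 in HBE LIEA, 7.59 in A549 LIEA and 8.07 in Smart-seq2. A549 was the lowest library by a small margin, -0.29 (-0.38 to -0.19) by LIEA. It was the highest gene of its group in A549, where DDIT4 was the highest in HBE. These values are mRNA, and ATF4 is known to be controlled chiefly in translation, which was not measured here.

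The serine synthesis enzymes were lower in A549, each to its own extent. PHGDH (chr1:120191034-120286841, plus strand), which takes the first step from 3-phosphoglycerate, had 629 reads and 6.08 in HBE LIEA, 164 reads and 4.29 in A549, and 1386 reads and 6.13 in Smart-seq2. The HBE libraries lay 0.04 apart, and the log2 difference of A549 was -1.79 by LIEA (-2.05 to -1.54) and -1.83 with Smart-seq2 as the HBE library. PSAT1, the aminotransferase of the second step, had 5.35, 4.57 and 6.73, with a difference of -0.79 (-1.03 to -0.55). PSPH, the phosphatase of the last step, had 4.25, 3.86 and 5.47, with a difference of -0.38 (-0.72 to -0.05). So A549 was below HBE at all 3 steps. SHMT2, which turns serine into glycine in mitochondria (chr12:57623356-57628718, plus strand), had 6.49, 5.29 and 6.69, and its difference was -1.20 (-1.37 to -1.03). MTHFD2, which carries the 1-carbon unit onward, had 5.44, 5.25 and 6.47, and its interval of -0.40 to 0.01 included 0. ASNS, the asparagine synthetase, had 3.69, 3.65 and 5.65. It hardly differed between the LIEA libraries, -0.04 (-0.40 to 0.32), while the HBE libraries lay 1.96 apart.

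Of the stress genes downstream of ATF4, some were higher in A549 and others lower. DDIT3, the pro-apoptotic factor CHOP (chr12:57910371-57915520, minus strand), had 15 reads and 2.47 in HBE LIEA, 42 reads and 4.10 in A549 LIEA, and 28 reads and 2.27 in Smart-seq2. A549 was above both, by 1.63 by LIEA with a wide interval of 0.75 to 2.59. DDIT3 overlaps the end of MARS (chr12:57869228-57911352) on the other strand, and whether the counting used strand is not given in the sources used here. TRIB3, a pseudokinase that feeds back on ATF4, had 4.60, 5.14 and 3.71, with A549 above both and a difference of 0.55 (0.32 to 0.78). CHAC1, which degrades glutathione, had 15, 24 and 37 reads and 1.06, 1.89 and 1.27, and its interval of -0.16 to 1.86 included 0. SESN2, a leucine sensor upstream of mTORC1, had 3.11, 2.65 and 3.36, with a difference of -0.46 (-0.85 to -0.07). DDIT4, an mTORC1 inhibitor also known as REDD1 (chr10:74033678-74035794, plus strand), had 5862 reads and 9.50 in HBE LIEA, 835 reads and 6.84 in A549 LIEA, and 5988 reads and 8.44 in Smart-seq2. With a log2 difference of -2.66 (-2.77 to -2.56), a fold of 6.33, it differed most of all 50 genes, and it was -1.60 with Smart-seq2 as the HBE library.

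The other genes of these pathways came from 4 lists of 56 genes, of which 52 entered. By LIEA, 10 of them were lower in A549 by a fold of 2 or more and 12 were higher, against 20.1% and 18.5% of all genes. The 9 genes around tRNA charging (such as XPOT, the tRNA exporter) had 1 lower, EEF1E1, and none higher, with a median of -0.09. The 9 genes of the eIF2 alpha kinases and phosphatases had none lower and 1 higher, and the kinases EIF2AK1 (-0.48), EIF2AK2 (-0.21), EIF2AK3 (-0.69) and EIF2AK4 (-0.87) were each on the lower side by LIEA, EIF2AK2 by less than its counting error. With Smart-seq2 as the HBE library EIF2AK3 (0.64) and EIF2AK4 (1.11) were instead higher in A549. Among the 23 other targets and partners of ATF4 that entered, 6 were lower and 10 higher, with a median of 0.20. The 11 other serine, glycine and folate enzymes had 3 lower (DLD, GLDC and MTHFD1L) and 1 higher, with a median of -0.35. The list of ATF4 targets thus held differences of both signs, and its range, from -3.74 to 5.10, was wider than that of the 50 members.

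**Figure D4:**
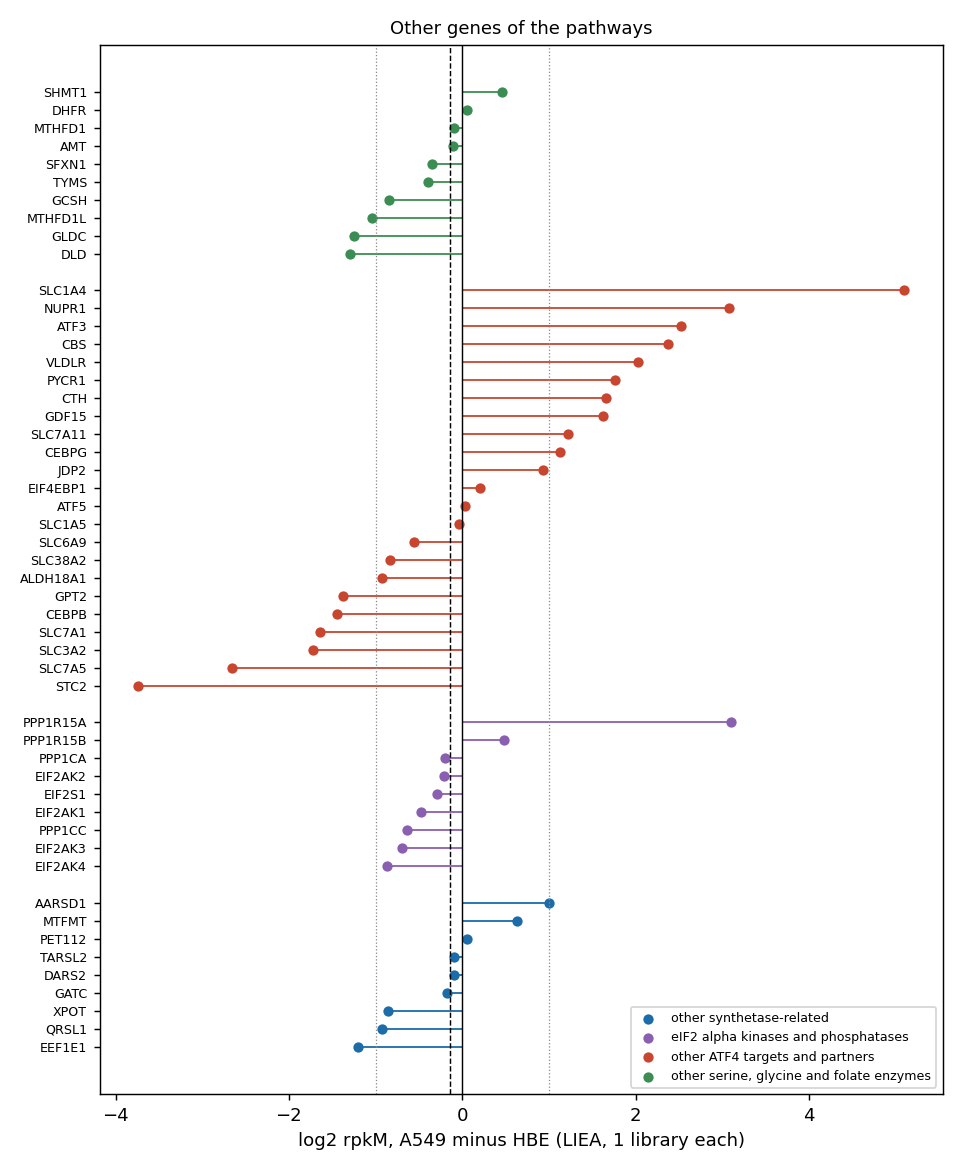
Log2 difference of rpkM between A549 LIEA and HBE LIEA (x axis, 1 library each) for 51 of the 52 other pathway genes that entered (y axis), coloured by list. The dashed line is the median of all genes at -0.14 and dotted lines mark a fold of 2. The ATF4 targets spread from STC2 at -3.74 to SLC1A4 at 5.10, and the other lists mostly stay between the dotted lines.

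The 10 largest of these differences were as follows, again in the order HBE LIEA, A549 LIEA and HBE Smart-seq2. SLC1A4, a carrier of alanine, serine and cysteine, had log2 rpkM of -2.41, 2.70 and -0.92, with 2, 62 and 12 reads. With so few reads in HBE its difference of 5.10 has a counting interval of 3.19 to 8.18, a ratio of 34.4. NUPR1, a stress-induced chromatin protein, had 2.10, 5.18 and 3.04, and ATF3, a stress-induced transcription factor, had 2.10, 4.62 and 2.55, so A549 was above both HBE libraries for all 3 genes. CBS, which starts transsulfuration from serine and homocysteine, had 1.12, 3.50 and 0.75. PYCR1, the mitochondrial proline enzyme, had 3.34, 5.10 and 4.58. VLDLR, a lipoprotein receptor, had 0.18, 2.21 and -5.16, the last from 1 read. CBS, PYCR1 and VLDLR were thus also highest in A549. PPP1R15A, the phosphatase subunit GADD34, had 3.38, 6.48 and 7.57, and here A549 lay between the HBE libraries, so that the log2 difference of A549 was 3.10 to HBE LIEA and -1.09 to Smart-seq2. Lower in A549 than in both HBE libraries were STC2, a secreted glycoprotein, with 3.51, -0.22 and 4.59, and the subunits of the LAT1 carrier of large neutral amino acids. SLC7A5, its light chain, had 10.79, 8.13 and 9.53, and SLC3A2, its heavy chain, had 9.94, 8.22 and 10.43.

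The members also differed between methods within 1 cell line. Of the 50 members, 31 were lower in HBE LIEA than in HBE Smart-seq2, against 47.8% of all genes, with a median log2 difference of -0.20. By this comparison 10 members were lower by LIEA by a fold of 2 or more and 5 were higher, against 21.0% and 28.5% of 12050 genes. The lowest by LIEA were ASNS (-1.96), RARS (-1.73), FARSB (-1.72), AIMP2 (-1.59) and KARS (-1.47), and the highest were VARS2 (2.28), VARS, whose levels are given above, AARS2 (1.23), DDIT4 (1.07) and CARS2 (1.03). The method difference was greater where transcripts were richer in GC. Across the 50 members, the Spearman correlation of this difference with the GC content of the annotated transcript closest in length was 0.53, and it was 0.39 across 11604 genes, where the points share libraries and depth. The part of base composition in the results was not tested. VARS and VARS2 have a transcript GC of 61.7% and 59.9%, against 37% for RARS and 34.8% for AIMP1, whose method difference was -1.36. The RARS value came from an annotated transcript of 945 bases. That transcript was matched to the smallest fitting length of RARS, 1069 bases, and the true length may be a whole multiple. Some other members rich in GC were not higher by LIEA, among them FARSA (61.8%, a log2 difference of -0.60), SARS2 (61.4%, -0.12) and CHAC1 (61.2%, -0.21). For A549 LIEA against HBE LIEA, where the method was the same, the correlation with GC was -0.12 over the members and 0.05 over 11912 genes.

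With Smart-seq2 as the HBE library, 38 of the 50 members were lower in A549, against 49.4% of all genes. There, 12 cytosolic genes were lower in A549 by a fold of 2 or more in place of 4, 5 mitochondrial genes in place of 4, and 7 genes of the ATF4 group in place of 3, against 28.6% of 12615 genes. Upwards there were 1, 2 and 2 genes, against 32.9%. In that comparison cell line and method cannot be told apart, and it shares the A549 library with the LIEA comparison. TARS, GARS, LARS2, MARS2, PHGDH, SHMT2 and DDIT4 passed the fold of 2 downwards against either HBE library, and SARS2 and DDIT3 upwards.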

How the data were processed

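PolyA+ mRNA of HBE and A549 was diluted to 10 pg and sequenced by LIEA on Ion Torrent, and HBE also by Smart-seq2 on Illumina. The authors mapped reads to RefSeq-RNA with FANSe2, merged splice variants and deposited log2 rpkM per gene, and the submitters' processing notes name hg19. The values were used as deposited. Unnamed entries were dropped, as were the 4 entries per library that shared their name with another. Total reads and reads per gene were recovered from the steps between values as the smallest whole numbers, so a gene's true reads may be a whole multiple and the intervals are then wider than needed. All 18856 genes came out whole, within 7.68e-04 of a read, at totals where 66.5% of 1336 genes with small read ratios gave a whole length, against 33.1% at any larger total. Depth was 4605855, 4154060 and 9845150 reads.

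Samples were grouped by cell line and method as labelled, with 1 library each. Differences were taken of log2 rpkM with no pseudocount, for genes with a mean of at least 1 rpkM over the libraries compared, and called at a fold of 2. Intervals are exact 95% binomial (Clopper-Pearson) intervals of the read ratio. No test was run. The scripts were tested on simulated data. Values in every library were given for the 5 highest and 5 lowest members of each group by the LIEA difference, for ATF4, DDIT3, ASNS, PHGDH, PSAT1, PSPH, SHMT2 and MTHFD2, and for the 10 other pathway genes with the largest difference. FARSA, FARSB, EPRS, EEF1E1, the EIF2AK genes and the genes named by method difference were chosen after their values were seen. The members and lists were chosen with earlier results of these data known. Alternatives were another scaling (median of all genes at 0, or TPM), a pseudocount of 1, no filter or a mean of 10 reads, a fold of 1.5, the counting interval past a fold of 2, and Smart-seq2 as the HBE library. Gene positions on GRCh37 came from GENCODE release 44, and promoters from RefSeq on GRCh38.p14. Some listed genes are not reported here by name. Promoters of AARS2, DARS, LARS, PSPH, SHMT2, VARS, VARS2 and YARS were not used here. Scripts ran under Python 3.11.15 with scipy 1.17.1, numpy 2.4.6, matplotlib 3.10.9 and pandas 2.3.3.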

Additional observations from a re-analysis of the deposited data

How the results depend on the processing

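Of 104 alternative values of the counts and medians, 86 stayed within 1.5 times the reported count or near the reported median. The other 18 moved. No group median changed sign, and the rule for counts could not show a change of direction. The balance of the other pathway genes did change, from 10 lower and 12 higher to 15 and 11 under TPM. It was 18 and 15 at a fold of 1.5, and 14 and 13 with Smart-seq2 as the HBE library. In the other settings more of them were higher. With Smart-seq2 as the HBE library the members past a fold of 2 were 12 lower and 1 higher for the cytosolic group, 2 higher for the mitochondrial group, and 7 lower and 2 higher for the ATF4 group, and the medians were -1.11 for the cytosolic and -1.31 for the ATF4 group. In that setting 8 of the 60 genes followed singly changed sign: VARS (0.55), AARS2 (0.12) and PPP1R15A (-1.09), which had passed a fold of 2, and VARS2 (1.69), CARS2 (0.34), QARS (0.16), MARS (0.10) and AIMP1 (-1.32), which had not. Only 13 of the 60 stayed within their counting interval. At a fold of 1.5 there were 1 higher cytosolic, 10 lower mitochondrial and 2 higher ATF4 group members, 18 lower other pathway genes, and 19 lower and 8 higher members between LIEA and Smart-seq2. Where the counting interval had to lie past a fold of 2, there were 2 lower mitochondrial members, 0 higher in the ATF4 group, and 3 higher between LIEA and Smart-seq2. With the median of all genes at 0, the cytosolic median was -0.36 and 3 members were higher between LIEA and Smart-seq2. Setting the median to 0 moved each difference by 0.14 and TPM by -0.16. These changed the sign of 3 and 2 of the 60 genes, all with a reported size of at most 0.10, and the lower share of all calls of 52.1% became 44.2% and 58.6%, where under TPM 14126 genes entered in place of 12775. With log2(rpkM + 1), 2 of the 60 genes moved, SLC1A4 to 2.65 and STC2 to -2.74, and the other filters moved none. The cause was not tested. No paired analysis was possible because there was 1 library per cell line and method, which also left no replicate to omit. Among the 50 members, depth left the widest counting intervals for PARS2, CHAC1 and DDIT3.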

Other observations

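Of the glycine cleavage system, which splits mitochondrial glycine and hands its carbon to folate, GLDC, DLD and GCSH were lower in A549 by LIEA. Their log2 differences were -1.25, -1.29 and -0.85. For each the HBE libraries lay further apart, with LIEA minus Smart-seq2 at 2.81, -1.39 and -2.60. GCSH had 58 reads in HBE LIEA and 29 in A549 LIEA, with a counting interval of -1.55 to -0.18. GLDC, the decarboxylase, had a log2 rpkM of 4.76 in HBE LIEA, 3.51 in A549 LIEA and 1.95 in HBE Smart-seq2, so A549 lay between the HBE libraries. DLD had 4.85, 3.57 and 6.24 and GCSH 4.03, 3.18 and 6.64, with A549 lowest for both. AMT had 12, 10 and 3 reads, too few to show a difference. SHMT1, the cytosolic counterpart of SHMT2, had 4.88 in HBE LIEA and 5.34 in A549 LIEA, above both HBE libraries, while SHMT2 was lowest there.

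Amino acid carriers also differed in sign. SLC7A11, the cystine carrier, had 3.44, 4.66 and 2.63 and was highest in A549. SLC7A1, for cationic amino acids, had 5.22, 3.58 and 4.24, and SLC38A2, for small neutral amino acids, 6.81, 5.98 and 6.71, both lowest in A549. SLC1A5, the glutamine carrier, had 6.78, 6.74 and 7.17, a log2 difference by LIEA of -0.04 with a counting interval of -0.15 to 0.06. These genes were chosen after their values were seen, and with 1 library per condition none of these differences has a replicate check.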
